A study of Mus musculus with 20 samples.

Results

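The genes Klf2, Klf4 and Klf5, which encode Krüppel-like zinc-finger transcription factors of naive mouse embryonic stem (ES) cells, were followed in a list of accessible regions from cells in which OCT4 is lost or kept at the exit from mitosis. All listed peaks that overlapped 1 of the 3 genes, or lay within 100000 bp of its ends in the mm10 annotation GENCODE M21, were taken. These were 82 of the 102373 listed peaks, 28 at Klf2, 14 at Klf4 and 40 at Klf5. Each of the 3 genes had an accessible promoter. Beyond the promoter peak, most of the accessible DNA at all 3 genes lay downstream of the TSS (transcription start site), least so at Klf2. Klf5 stood at the head of a dense field of mostly narrow peaks, Klf2 had many peaks within 20 kb, and Klf4 had few peaks with a bare stretch upstream.

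The accessible regions were mapped by ATAC-seq, in which the Tn5 transposase inserts adapters into DNA that nucleosomes do not cover. All cells were of the mouse ES line ZHBTc4, whose endogenous OCT4 is shut off by doxycycline (dox), and all carried YPet-MD, a fluorescent protein on the mitotic degron that was used together with Hoechst for sorting. They also carried OCT4 from a lentivirus with a weak PGK promoter, at a level below wild type, either as SNAP-MD-OCT4, whose degron removes the protein between mitosis and G1, or as SNAP-MD*-OCT4, whose degron is mutated and inactive. For each construct, cells of early G1, of late G1, of S and of late S/G2 were sorted after 40 h in 1 µg/ml dox, and unsorted cells without dox were also taken, giving 10 groups of 2 replicates and 20 libraries. The lines were SNAP-sorted populations and not single clones, and all cells grew in serum with LIF and the inhibitors CHIR99021 and PD184352. The list merges the peaks of the 16 libraries with dox and gives only chromosome, start and end. It has no value for any library, so neither the constructs nor the phases could be compared, the depth behind a peak is unknown, and no replicate error or test can be given for the values below. A peak that was called in 1 library counts like one called in all 16. Expression was not measured in these libraries, so the naive state named for these genes could not be checked against marker levels.

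Krüppel-like factors bind GC-rich and CACCC boxes through zinc fingers at the C-terminal end. Klf4 is a direct target of LIF signalling through STAT3, Klf2 depends on OCT4 and is kept up when MEK is inhibited, and Klf5 supports self-renewal and proliferation, so the 3 genes link the signals in the culture medium to the pluripotency network. Their regulatory elements are known to be bound in ES cells by OCT4, SOX2, ESRRB and other factors of that network as well as by the Krüppel-like factors themselves.

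The promoters are shown first because a listed peak covered each of them whole. RefSeq promoter sequences (build GRCm38.p6, 250 bases before to 50 bases after the start) were found for Klf2 and Klf4, 2 of the 3 genes. The 250 bases before the start are printed 5′ to 3′ on the strand of the gene, chr8:72318812-72319061 on the plus strand for Klf2 and chr4:55532476-55532725 on the minus strand for Klf4. Capitals mark the GC box (GGGCGG on either strand).
Klf2: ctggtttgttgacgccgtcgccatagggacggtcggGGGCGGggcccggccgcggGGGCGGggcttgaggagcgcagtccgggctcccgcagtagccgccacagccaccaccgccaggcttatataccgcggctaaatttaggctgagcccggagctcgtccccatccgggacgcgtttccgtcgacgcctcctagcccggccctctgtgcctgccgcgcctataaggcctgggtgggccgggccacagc
Klf4: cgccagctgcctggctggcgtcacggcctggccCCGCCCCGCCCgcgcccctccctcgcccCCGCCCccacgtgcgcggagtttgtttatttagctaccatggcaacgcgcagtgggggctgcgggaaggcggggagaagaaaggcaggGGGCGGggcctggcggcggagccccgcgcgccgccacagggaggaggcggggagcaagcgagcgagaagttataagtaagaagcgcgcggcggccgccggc
Klf2 held 2 GC boxes, which began 214 and 195 bases before the RefSeq start. Klf4 held 4, which began 217, 212, 189 and 101 bases before it, the first 2 sharing 1 letter. At least 1 GC box was found in 35.7% of the 32851 RefSeq promoters. The TATA box (TATAAA, in 13.6% of all promoters), the CCAAT box (CCAAT, 37.4%) and the KLF motif (GGGTGTGG or GGGCGTGG, 8.58%) had no match in the 300 bases of either gene. Only exact letters were searched. Both printed sequences hold TATAAG, which differs from TATAAA in its last letter and was not counted over all promoters. An AP-2 match (GCCNNNGGC, in 16.6% of all promoters) lay 9 bases before the Klf4 start. Both promoters were GC-rich. The 300 bases held 69.3% G and C at Klf2 and 74.3% at Klf4, against a median of 52.7% over all promoters, and more than 89.5% and 95.6% of them. The ratio of observed to expected CpG was 0.889 at Klf2 and 0.974 at Klf4, against a median of 0.384, and all 300 bases of both fell inside listed peaks.

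Stretches of the distal peaks that held the motifs of the pluripotency network are shown next, because the position of these letters is what the peak list adds to the sequence. They were chosen after the matches had been seen. All are on the plus strand of mm10, so that a match on the minus strand reads as its reverse complement, and capitals mark the matches named before each line, with AP-2 matches left in lower case. In the widest Klf2 peak, chr8:72271751-72271950, 47.2 kb upstream of the transcription start site (TSS), capitals mark an ESRRB match and a KLF match.
Klf2 upstream: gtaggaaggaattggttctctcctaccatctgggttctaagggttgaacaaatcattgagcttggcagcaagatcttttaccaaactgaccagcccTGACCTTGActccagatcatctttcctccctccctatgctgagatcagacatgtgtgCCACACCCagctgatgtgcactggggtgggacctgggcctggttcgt
In the Klf4 peak 17.1 kb downstream of the TSS, chr4:55514852-55515051, they mark 2 KLF matches.
Klf4 downstream: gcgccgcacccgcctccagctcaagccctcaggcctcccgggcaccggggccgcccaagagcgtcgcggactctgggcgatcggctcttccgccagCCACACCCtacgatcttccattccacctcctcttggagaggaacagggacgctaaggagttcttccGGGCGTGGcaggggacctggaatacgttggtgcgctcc
The Klf5 peak 22.0 kb downstream, chr14:99320738-99321034, is printed whole with 3 KLF matches, each followed by the same letters cctatt.
Klf5 KLF: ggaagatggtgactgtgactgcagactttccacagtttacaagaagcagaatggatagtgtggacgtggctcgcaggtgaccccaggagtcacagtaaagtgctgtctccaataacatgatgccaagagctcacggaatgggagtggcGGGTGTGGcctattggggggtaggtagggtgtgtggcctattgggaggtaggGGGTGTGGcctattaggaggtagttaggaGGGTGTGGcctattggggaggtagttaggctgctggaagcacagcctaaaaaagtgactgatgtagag
Further downstream of Klf5, chr14:99354136-99354295 holds the OCT4::SOX2 match of the 82 peaks, with 2 mismatches, both in its OCT part.
Klf5 OCT4::SOX2: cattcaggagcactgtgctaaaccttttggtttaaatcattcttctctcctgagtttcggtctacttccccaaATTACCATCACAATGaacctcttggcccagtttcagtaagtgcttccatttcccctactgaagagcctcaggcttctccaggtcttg
In the next peak, chr14:99354869-99354988 holds a STAT match.
Klf5 STAT: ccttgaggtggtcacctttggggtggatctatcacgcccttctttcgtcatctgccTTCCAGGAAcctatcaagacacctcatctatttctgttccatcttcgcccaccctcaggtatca
In the same peak, chr14:99355476-99355595 holds an OCT match, and the line ends 1 base short of a KLF match.
Klf5 OCT: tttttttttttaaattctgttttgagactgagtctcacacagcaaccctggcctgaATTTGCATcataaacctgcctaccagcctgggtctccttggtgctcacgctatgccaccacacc

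Klf2 (ENSMUSG00000055148.7, chr8:72319033-72321656, plus strand) is a gene of 2624 bp. Its 28 peaks covered 14541 bp, 7.18% of the window. Of these peaks, 8 lay upstream of the TSS, 1 on it and 19 downstream, and counted as whole peaks those upstream summed to 5629 bp and those downstream to 8290 bp. The promoter peak, chr8:72318666-72319714, was 1049 bp wide, ran from 0.367 kb before to 0.681 kb after the TSS and held 68.5% G and C. It was followed inside the gene by 2 narrow peaks, of 169 bp (chr8:72319800-72319968) and 214 bp (chr8:72320043-72320256), both centred on coding exons. The first of these had 81.7% G and C, the highest of the 28. Thus none of the 3 peaks that touched the gene reached beyond 1223 bp from its TSS.

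Peaks were close together around Klf2. A run of 20 peaks with gaps of at most 10000 bp reached from 10.8 kb upstream to 63.9 kb downstream of the TSS and spanned 74.6 kb, and upstream of it a gap of 36275 bp held no peak. On the far side of this gap lay the widest peak, of 1298 bp (chr8:72270687-72271984, 48.3 to 47.0 kb upstream), which was wider than 98.8% of all distal peaks in the list. This peak held SOX, KLF, ESRRB and AP-2 matches, the most kinds in any of the 82, all 336 to 572 bp from its centre. Of the 82 peaks, 2.44% held 3 or more kinds, against 3.39% of all listed peaks, among which up to 6 kinds occurred. Downstream, an intergenic peak of 1187 bp (chr8:72333597-72334783, from 14.6 kb) was wider than 98.1% of distal peaks and held a KLF match. The remaining 3 of the 5 widest peaks belonged to the promoters of other genes. They were the first peak of the window, 1209 bp at Fam32a (chr8:72219076-72220284), a peak of 1154 bp at Ap1m1 (chr8:72239579-72240732), which encodes a subunit of the clathrin adaptor AP-1, and the last peak, 1203 bp at Eps15l1 (chr8:72420881-72422083), which encodes an endocytic adaptor.

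Klf2 shared its window with the TSS of 4 other protein-coding genes, Ap1m1, Eps15l1, Fam32a and Gm10282. Klf2 was the nearest protein-coding gene, by its annotated 5′ end, for 15 of the 28 peaks. Of the 12 peaks centred in introns, 11 lay in introns of Eps15l1, the nearest of them 23.7 kb from the Klf2 TSS. With the TSS of any transcript in place of the gene start, Klf2 was nearest for 10 peaks. Proximity in sequence was the measure here, and which gene a peak acts on was not tested.

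Klf4 (ENSMUSG00000003032.8, chr4:55527143-55532466, minus strand) is a gene of 5324 bp. Its 14 peaks covered 8605 bp, 4.19% of the window. Only 2 of them lay upstream, together 622 bp, against 1 on the TSS and 11 downstream, with 6694 bp. The promoter peak, chr4:55532050-55533338, was 1289 bp wide, from 0.872 kb before to 0.416 kb after the TSS, and held 69.4% G and C and 3 AP-2 matches. Peaks of 548 bp in the intron (chr4:55531295-55531842) and 536 bp over a coding exon (chr4:55530337-55530872) followed inside the gene. The upstream side was bare. No peak was listed over the 50156 bp before the promoter peak, which was the widest gap in the 3 windows, and the first peak of the window was 172 bp wide and lay 86.0 kb upstream (chr4:55618295-55618466).

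Downstream of Klf4 the peaks stood in groups. A peak of 730 bp (chr4:55514641-55515370) lay alone 17.1 kb from the TSS, with 2 KLF matches at 17448 and 17514 bp. Then came 3 peaks of 977, 840 and 607 bp between 51.2 and 57.1 kb, 2424 bp in a span of 5.86 kb. The first (chr4:55480264-55481240) and second (chr4:55477320-55478159) of these were wider than 95.3% and 91.5% of all distal peaks, and TCF matches lay in the first and the last. TCF factors are the nuclear effectors of Wnt signalling, which CHIR99021 mimics. A TCF match was found in 7.32% of the 82 peaks, against 7.89% of all listed peaks, and a Wnt input to Klf4 was not tested. After another 10343 bp without a peak, a run of 4 peaks spanned 14.2 kb and began with the widest peak of the window, 1382 bp (chr4:55463657-55465038, from 67.4 kb), beside the annotated start of the long non-coding RNA gene Gm12510. The run ended with the last peak of the window, 502 bp with a CTCF match (chr4:55450801-55451302, 81.2 kb). Another 4 peaks, of which the promoter peak was the widest, made a shorter run at the gene, of 7.61 kb. In 2 narrow peaks of the downstream run, 213 and 212 bp wide, 80.3% and 87.7% of the bases were soft-masked as repeats, where short reads are harder to place, and these were the only ones of the 82 over 80%.

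No other protein-coding gene started within the Klf4 window. Klf4 was the nearest protein-coding gene for all 14 peaks, but for 4 of them when the TSS of every transcript were counted. The other 10 lay nearer to the annotated start of a long non-coding RNA or predicted gene such as Gm12510.

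Klf5 (ENSMUSG00000005148.8, chr14:99298691-99315036, plus strand) is a gene of 16346 bp. Its 40 peaks covered 15650 bp, 7.23% of the window, a share close to that of Klf2 from 12 more peaks. There were 14 peaks upstream with 3778 bp, 1 on the TSS and 25 downstream with 10889 bp. The promoter peak, chr14:99298296-99299429, was the widest of the window at 1134 bp, ran from 0.395 kb before to 0.738 kb after the TSS and held 70.9% G and C and 3 AP-2 matches. Inside the gene, 4 further peaks of 344, 172, 186 and 146 bp were listed (chr14:99301535-99301878, chr14:99312231-99312402, chr14:99313183-99313368 and chr14:99314205-99314350). The last 3 of them opened a run of 23 peaks that went on to 99.4 kb downstream and spanned 85.8 kb, the run with the most peaks in the 3 windows.

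After the promoter peak, the 4 widest peaks of the window were 894 bp at 41.1 kb (chr14:99339770-99340663), 988 bp at 49.4 kb (chr14:99348075-99349062), 940 bp at 50.8 kb (chr14:99349449-99350388) and 848 bp at 67.4 kb (chr14:99366042-99366889). The peak of 988 bp was wider than 95.5% of all distal peaks. The peak of 848 bp lay 25 bp from the annotated start of the predicted gene Gm49218 and counted as promoter-proximal. Upstream, the peaks were narrow, from 152 to 553 bp, and a gap of 26484 bp separated a nearer from a farther set. All 9 peaks of the farther set lay in introns of Pibf1, whose own start is outside the window, and the first was 169 bp wide (chr14:99198540-99198708). The last peak of the window was 482 bp wide and lay 113 kb downstream of the TSS (chr14:99411902-99412383).

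No other protein-coding gene started in the Klf5 window either, and Klf5 was the nearest protein-coding gene for 39 of the 40 peaks. With the TSS of every transcript it was nearest for 7. In the whole list, 70 peaks had Klf5 as their nearest protein-coding gene, more than for 99.97% of 21911 gene names, with a median of 3. The corresponding numbers were 15 at Klf2 (93.9%) and 21 at Klf4 (97.3%). The distance to neighbouring genes enters this count, and the values per length were ordered differently. The stretch in which Klf5 is the nearest protein-coding gene, between Dis3 at 199 kb upstream and Klf12 at 986 kb downstream, measured 592 kb and held 11.8 peaks per 100 kb, more than 76.7% of genes. That of Klf2 measured 58.1 kb and held 25.8 per 100 kb (97.3%). That of Klf4 measured 695 kb and held 3.02 per 100 kb (35.2%), against a median of 5.56.

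**Figure D1:**
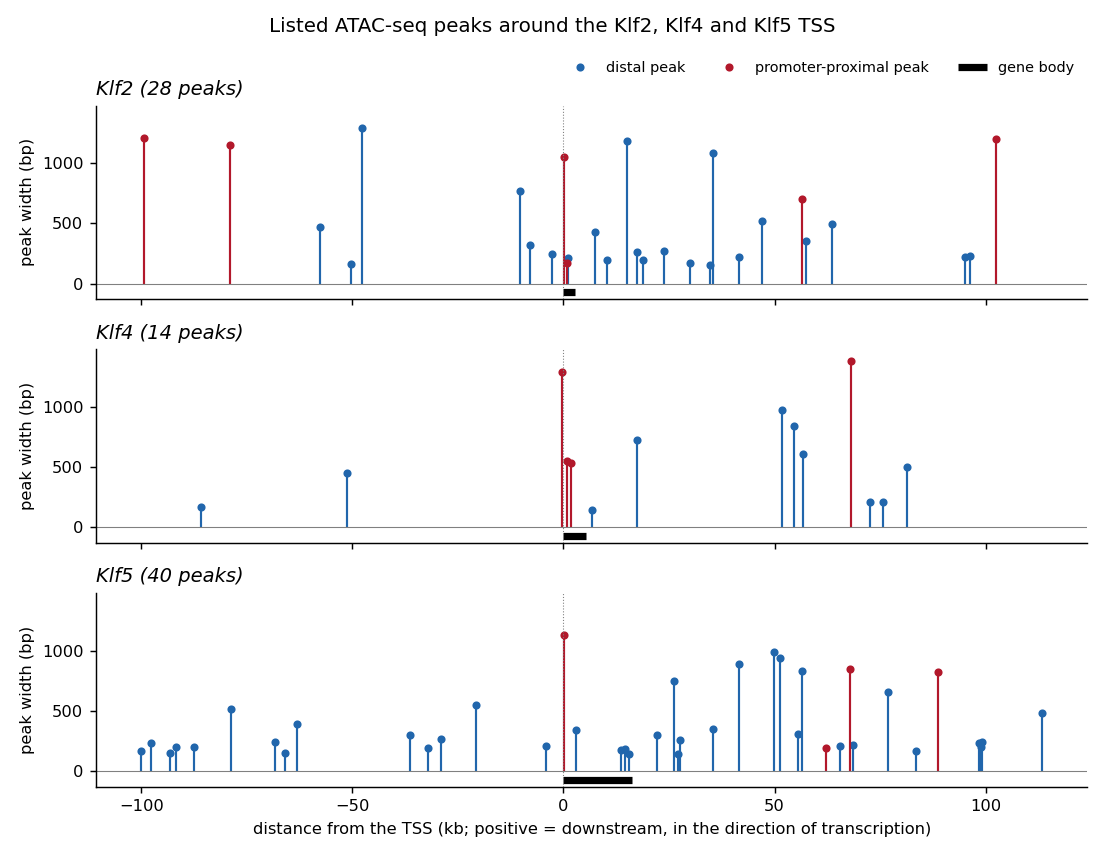
Each stem is 1 listed peak, at its distance from the TSS of Klf2, Klf4 or Klf5 in kb (positive downstream), and its height is the peak width in bp. Klf2 has 20 of its 28 peaks in 1 run around the gene, Klf4 has a gap of 50156 bp before its promoter, and Klf5 has 23 of its 40 peaks in a run from 13.5 to 99.4 kb downstream.

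To see how these counts stood among other genes, every protein-coding gene was given the same windows, and the share of the 21938 genes with fewer peaks is given as a percentile. Runs and gaps were described at the 3 genes only, so whether they are unusual among genes is not known. At 3 of the 3 genes a peak lay at most 1000 bp from the TSS, as it did at 66.1% of all protein-coding genes. In the gene and 100000 bp on either side, the 28 peaks at Klf2 were more than at 80.9% of genes, the 14 at Klf4 more than at 41.4% and the 40 at Klf5 more than at 97.0%. The median gene had 16, with quartiles of 8 and 25. Klf5 was therefore high in this list, Klf2 above the upper quartile and Klf4 near the middle. With peaks at most 100 bp apart joined, Klf2 had 25 peaks in this window, more than at 74.5% of genes, and so was no longer above the upper quartile.

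The order of Klf2 and Klf5 turned with distance. Within 5 kb of the TSS Klf2 had 4 peaks and Klf4 and Klf5 had 3 each, against a median of 1. Within 10 kb the counts were 6, 4 and 3, against a median of 2. Within 20 kb Klf2 had 11 peaks, more than 99.1% of genes, whereas Klf4 had 5 (68.1%) and Klf5 had 6 (78.6%). The lead of Klf2 in the nearest windows rested on its promoter, where 3 peaks lie less than 100 bp apart. With peaks at most 100 bp apart joined, Klf2 had 2 peaks within 5 kb, under the 3 each at Klf4 and Klf5, and within 10 kb it had 4, as Klf4 did. Within 20 kb it still had 9 (96.4%). Within 50 kb and without joining, Klf2 and Klf5 were close, with 18 (94.9%) and 17 (92.9%), and Klf4 had 5 (34.7%). With joining, Klf2 had 15 (87.9%), under the 17 (93.8%) at Klf5. Within 100 kb Klf5 had 39 (99.0%), Klf2 27 (86.2%) and Klf4 14 (49.7%) without joining, and Klf2 had 24 (80.3%) with it.

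Counted in accessible bases and not in peaks, Klf2 and Klf5 were closer to other genes, and Klf4 was not. Within 100 kb of the TSS the peaks covered 13765 bp at Klf2 (78.7%), 8605 bp at Klf4 (55.2%) and 15168 bp at Klf5 (83.6%), against a median of 7626 bp. Within 20 kb they covered 5033 bp at Klf2 (94.2%), 3250 bp at Klf4 (74.9%) and 2188 bp at Klf5 (54.1%). Thus the many peaks of Klf5 were less far out by bases than by number.

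**Figure D2:**
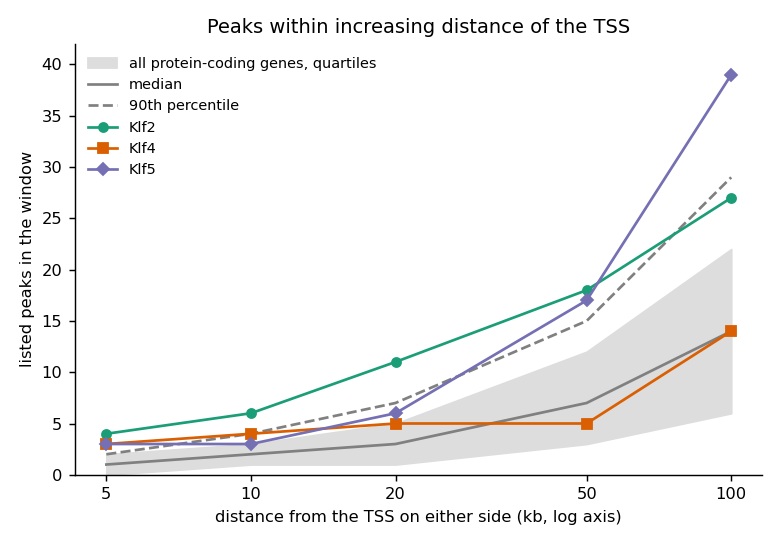
Number of listed peaks (vertical axis) within 5, 10, 20, 50 and 100 kb of the TSS (log axis) for Klf2, Klf4 and Klf5, with the median, quartiles and 90th percentile of 21938 protein-coding genes. Without joining of neighbouring peaks, Klf2 is above the 90th percentile up to 50 kb and Klf5 at 50 and 100 kb. All 3 are above it at 5 kb, and Klf4 meets the median at 100 kb with 14 peaks.

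The difference between number and bases went with peak width. The median width was 252 bp at Klf5 (95% interval from order statistics 206 to 349), 339 bp at Klf2 (223 to 702) and 542 bp at Klf4 (212 to 977), against 415 bp over all listed peaks. These intervals overlap, and since they take the peaks of a locus as independent, they show counting error alone. Peaks narrower than 300 bp made up 23 of 40 at Klf5, 13 of 28 at Klf2 and 4 of 14 at Klf4, against 35.8% of all. Among distal peaks alone the medians were 241.5 bp at Klf5, 267.5 bp at Klf2 and 476 bp at Klf4, against 352 bp over all distal peaks. Of the 82 peaks, 14 were promoter-proximal (at most 1000 bp from the TSS of any transcript) against 25.1% of all listed peaks, and the median width of these 14 was 948.5 bp against 815 bp. Wide peaks were not missing at any of the genes. Those of 800 bp or more numbered 7, 4 and 7 at Klf2, Klf4 and Klf5, together 22.0% of the 82 against 20.3% of all.

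Base composition differed along with width. The median peak at Klf5 had 45.8% G and C, below the 52.1% at Klf2, the 51.1% at Klf4 and the 50.1% over all listed peaks. The Klf5 peaks ranged from 31.6% in a peak of 190 bp downstream, at the predicted gene Gm25130, to 70.9% in the promoter peak. Repeats were no more frequent than elsewhere, with 14.9%, 14.3% and 16.5% of the peak bases soft-masked at Klf2, Klf4 and Klf5 and 16.8% over all listed peaks. By the annotation, 13 Klf2, 6 Klf4 and 25 Klf5 peaks were centred between genes and 12, 7 and 10 in introns.

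**Figure D3:**
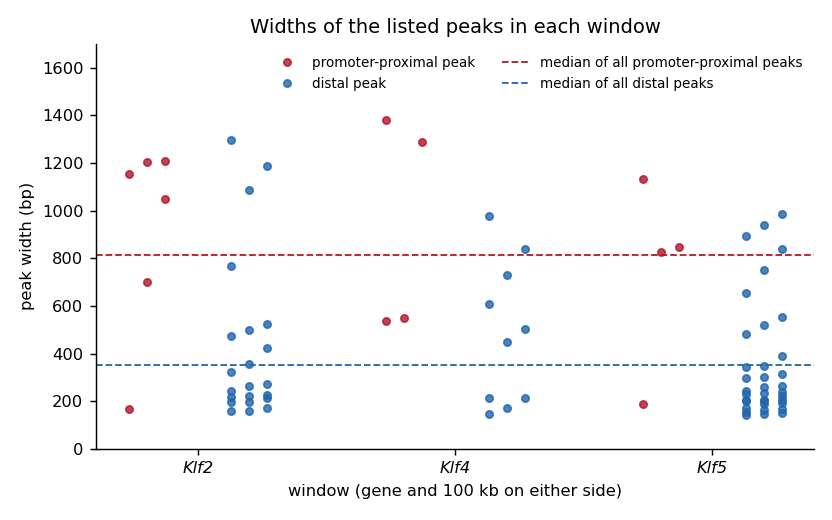
Each point is 1 listed peak and its width in bp, by window and by class, and dashed lines mark the medians of all promoter-proximal (815 bp) and all distal peaks (352 bp). Most distal peaks at Klf2 and Klf5 lie under the distal median, and each window holds a few of more than 800 bp.

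Motifs of factors that act in ES cells were then searched in the 82 peaks on both strands, as fixed letters. The OCT4::SOX2 composite was searched as the SOX part CATTGT, any base and the OCT part ATGCAAAT, with up to 2 mismatches in the 14 fixed letters, and the OCT motif is its OCT part without a mismatch, so that the letters of both can overlap. A match names letters and not binding, and no match does not show that a factor is absent. An OCT4::SOX2 match was found in 1 of 82 peaks, against 0.677% of all listed peaks, and an OCT match (ATGCAAAT) in 2, against 2.56%. A SOX match (CCATTGTT or CCTTTGTT) was found in 2, against 6.99%. The KLF motif was found in 11 peaks, which is 13.4% (Wilson 95% interval 7.66 to 22.4), against 15.1%. ESRRB (TCAAGGTCA) was found in 3 peaks against 2.82% of all, STAT (TTCCNGGAA) in 1 against 2.17% and TCF (ATCAAAG) in 6 against 7.89%. AP-2 was found in 16, or 19.5% (12.4 to 29.4), against 23.7%. CTCF, searched as its degenerate consensus with up to 1 mismatch, was found in 3 peaks, or 3.66% (1.25 to 10.2), against 13%. The intervals take the peaks of a locus as independent and show counting error alone, so they are not a test against the list.

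For most motifs the members were thus close to the list as a whole. The widest gap was for CTCF, which per length had 0.762 matches per 10 kb in the 82 peaks against 2.54 over all listed peaks. None of its 3 matches was at Klf5, 1 was at Klf2 and 2 were at Klf4. SOX was also lower per length, with 0.508 matches per 10 kb against 1.40, from 2 matches. Per length, KLF had 3.81 matches per 10 kb against 3.47 and AP-2 had 6.86 against 6.84. No motif of the 9 was found in 47 of the 82 peaks, 57.3% against 46.1% of all listed peaks. The peaks without any were 30 of 40 at Klf5, 12 of 28 at Klf2 and 5 of 14 at Klf4, and the Klf5 peaks were also the narrowest.

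The counts by motif differed between the 3 genes, whose windows held unlike numbers and widths of peaks. KLF matches lay in 6 of 28 peaks at Klf2, 2 of 14 at Klf4 and 3 of 40 at Klf5, against 15.1% of all listed peaks. AP-2 matches lay in 9, 3 and 4 peaks in the same order, against 23.7% of all. TCF matches lay in 1, 3 and 2, against 7.89%. The 3 ESRRB matches, for the orphan receptor that shares many targets with the naive factors, were 47.2 kb upstream and 30.1 kb downstream of the Klf2 TSS and 27.1 kb downstream of the Klf5 TSS. The OCT4::SOX2, OCT and STAT matches all belonged to Klf5, with no match to any of them at Klf2 or Klf4. With 1 or 2 peaks per motif, these counts do not set the loci apart.

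At Klf5 the matches to these 3 motifs lay close together. The OCT4::SOX2 match, CATTGTGATGGTAAT on the minus strand with 2 mismatches (chr14:99354209-99354223), was 55.5 kb downstream of the TSS and 38 bp from the centre of a peak of 313 bp (chr14:99354022-99354334). Both mismatches fell in its OCT part, and its SOX part matched CATTGT exactly. The neighbouring peak, 453 bp further on and 837 bp wide (chr14:99354788-99355624), held the STAT match TTCCAGGAA at 56.2 kb, an OCT match at 56.8 kb and a KLF match at 56.9 kb. In the neighbouring peak, the STAT, OCT and KLF matches lay 277, 330 and 386 bp from the centre. From the OCT4::SOX2 match to this KLF match, the 4 matches spanned 1388 bp. The remaining OCT match, at 41.6 kb, lay with a TCF match in the peak of 894 bp. All OCT4::SOX2, OCT and STAT matches at the 3 genes were therefore within the run of 23 peaks downstream of Klf5, and those in the pair of neighbouring peaks are in the stretches printed above.

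**Figure D4:**
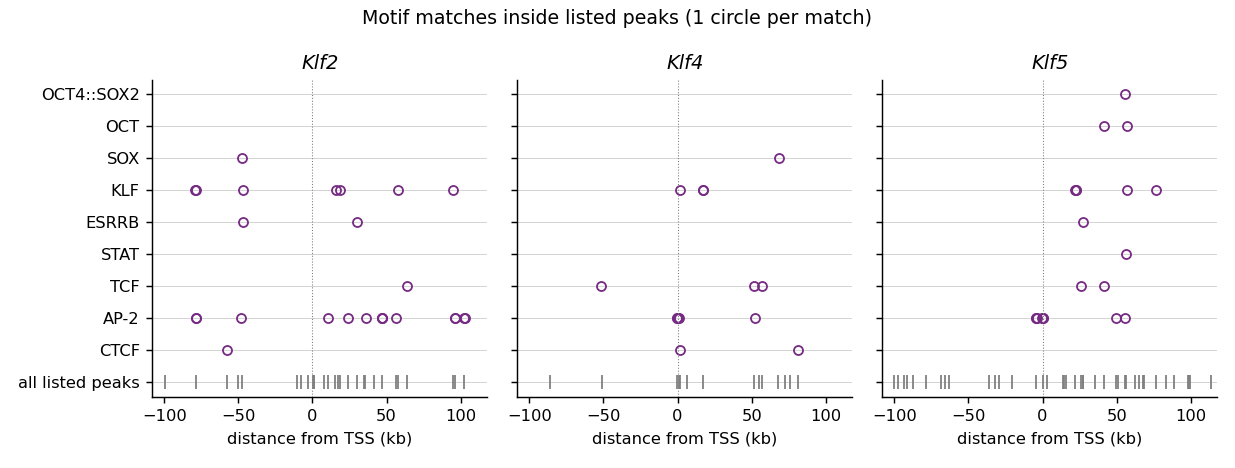
Each circle is 1 motif match inside a listed peak, at its distance from the TSS of Klf2, Klf4 or Klf5 in kb, with 1 row per motif and all listed peaks as ticks in the bottom row. OCT4::SOX2, OCT and STAT matches appear only at Klf5, between 41.6 and 56.8 kb downstream.

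The other Krüppel-like genes gave a reference for the 3 members. Each of the 14 others had a peak at most 1000 bp from its TSS, against 66.1% of protein-coding genes. Within 100 kb of the TSS they had a median of 23.5 peaks, from 5 at Klf7 to 36 at Klf16, and 9 of the 14 were above and 5 below the median of 14 over all genes. Klf5 with 39 had the highest count of the 17 genes, Klf2 with 27 tied with Klf3 and Klf13, and Klf4 with 14 was followed only by Klf17 with 12, Klf8 with 11, Klf14 with 8, Klf6 with 7 and Klf7. Several of the high counts belonged to gene-rich surroundings. Klf16 was the nearest protein-coding gene for 2 of the peaks in its window of gene and 100000 bp and Klf1, the erythroid factor, for 1, whereas Klf5 was nearest for 39, Klf12 for 55 over its much longer gene and Klf4 for 14. The median of the 14 others was 7.5, so the 15 peaks nearest to Klf2 and the 14 nearest to Klf4 were also above it. The promoter peaks of Klf2, Klf4 and Klf5, of 1049, 1289 and 1134 bp, were within the family's range, from 212 bp at Klf17 to 2758 bp at Klf13.

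**Figure D5:**
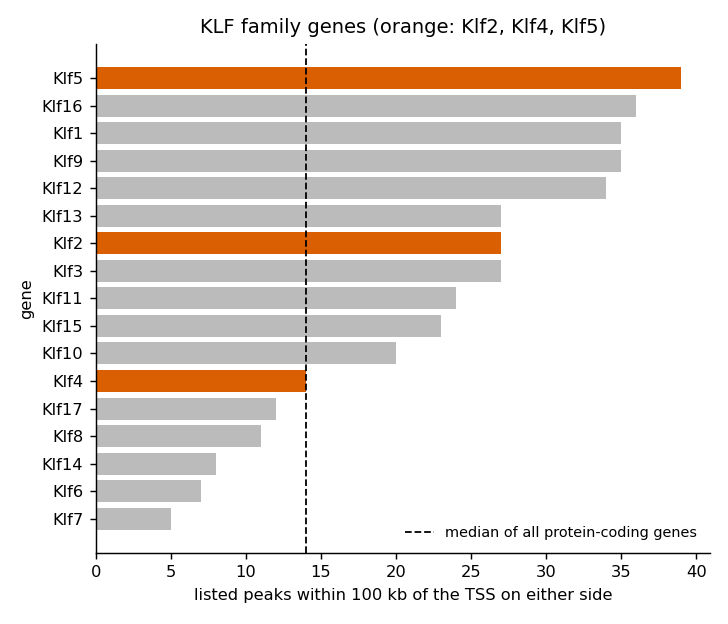
Bars give the number of listed peaks within 100 kb of the TSS on either side for 17 Krüppel-like genes, with Klf2, Klf4 and Klf5 in orange and the median of all protein-coding genes, 14, as a dashed line. Klf5 has the most, 39, and Klf4 lies on the median.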

How the data were processed

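ATAC-seq libraries came from sorted and unsorted ZHBTc4 cells. The authors aligned reads to mm10 (GRCm38) with STAR 2.6.1c, removed duplicates with Picard, called peaks with MACS 2.1.1.20160309 and merged the peaks from dox with BEDTools. The deposited file holds 3 columns of coordinates, with no score, count or other value per library. A filter at 5000 bp is described, yet 7 peaks are wider. Whether input and blacklisted regions were removed could not be tested.

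From this list, peaks were counted around each gene of GENCODE M21 and placed by distance to the TSS (protein-coding genes by their 5′ end). Coordinates count from 1. Motifs were searched in mm10 sequence. Intervals are at 95% by the Wilson method or order statistics. The planned limma comparison of constructs needs values per library and was not run. The named peaks are those within 1000 bp of a member's TSS, those overlapping the gene, the 5 widest, the first and the last of each window, those with an OCT4::SOX2 match and the longest run; others were named for motifs after these were seen. The members, motifs and lists were chosen with earlier results of these data known. Functions were tested on simulated data. The tools were numpy 2.4.6, scipy 1.17.1, pandas 2.3.3 and matplotlib 3.10.9 under Python 3.11.15.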

Additional observations from a re-analysis of the deposited data

How the results depend on the processing

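Of 87 alternative values, 48 stayed within the limits set for them and 39 moved. With peaks at most 100 bp apart joined, an alternative for the counts near the TSS that was chosen after seeing the data, Klf2 had 2 peaks within 5 kb. A minimum width of 300 bp gave 15 peaks at Klf2 and 17 at Klf5, with 1 Klf2 peak left within 1000 bp of the TSS, 5 and 17 peaks nearest to Klf2 and Klf5, median widths of 768 and 656 bp, and 1 peak with an ESRRB match. With the TSS of any transcript, 4 peaks at Klf4 and 7 at Klf5 had the member as nearest gene. The percentile among protein-coding genes varied with the window. For Klf2 it was 86.2, 94.9 and 99.1 within 100, 50 and 20 kb of the TSS, 64.6 with peaks of at least 300 bp, 89.9 with distal peaks and 75.1 among genes with a promoter peak. For Klf4 these values were 49.7, 34.7, 68.1, 44.6, 47.5 and 26.1. For Klf5 they were 99.0, 92.9, 78.6, 72.1, 99.0 and 96.1, so that its high rank rests in part on narrow peaks. An OCT4::SOX2 match was found in 0 of the 82 peaks with up to 1 mismatch and in 6 with up to 3, and a CTCF match in 0 without a mismatch. In the central 200 bp of the peaks, OCT was found in 1, SOX in 0, KLF in 7, STAT in 0, TCF in 1, AP-2 in 8 and CTCF in 1. For these other motif settings no share of all listed peaks is given. The counts therefore show how the search depends on its settings and cannot be set against the list. No paired analysis was possible because no value is given per library, so MD-OCT4 was not set against MD*-OCT4 and that fit, with or without a replicate block and without replicate 1 or 2, was not run. Depth is unknown, so that a region without a peak may be closed or too shallowly sequenced.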
